A study of Homo sapiens with 4 samples.

Results

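The response shared by both compounds described as inhibitors of PSF was taken as the difference between 3 compound arrays and the vehicle array of the same series. For each gene the mean and the smallest of the 3 log2 differences to vehicle were taken, together with whether the 3 had the same sign. Genes were described where their signal lay above a floor on all 4 arrays, set for each array at the 95th percentile of its 612 negative controls, which held for 4982 of 17687 named genes (28.2%). Of the 4 arrays in the series, 3 were compound arrays and 1 was the vehicle array. All came from DU145, an established human line of castration-resistant prostate cancer, grown in medium with serum and exposed for 48 h to vehicle, to No.10-3 at 5 µM, or to 0.5 µM C-30 or 2 µM. Each condition had 1 array of total RNA, so nothing here could be tested and every statement describes these 4 arrays. The 3 compound arrays are 2 compounds and 2 doses of one of them, and are no replicates of a condition. The compounds shared no dose, so their values are given side by side and not compared. All 3 differences were taken to the same vehicle array, so any deviation of that array enters all 3 alike and gives them the same sign.

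PSF, the protein product of SFPQ, is a nuclear RNA-binding protein that works in pairs with its relatives NONO and PSPC1. It takes part in transcription, in splicing and in the nuclear bodies called paraspeckles, which form on a long noncoding RNA. In prostate cancer cells it is known to bind many transcripts, among them those of splicing factors and of androgen signalling.

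At least 2-fold, a log2 difference of 1 on every compound array, 29 genes were higher than with vehicle (0.582% of 4982) and 15 were lower (0.301%). The higher genes were led by ANXA1, KIF5B, HSP90AA1 and CDK1, which encode an anti-inflammatory annexin, a transport motor, a chaperone and the mitotic kinase. The lower genes were led by GYS1, PTGES, C1QL1 and THRA, which encode muscle glycogen synthase, a prostaglandin E synthase, a secreted C1q-like protein and a thyroid hormone receptor. The median smallest difference was 1.11 for the 29 and -1.11 for the 15, so most of both groups stood close to the threshold. Probe sets that the array design names positive controls passed at similar rates, 12 of 1929 higher (0.622%) and 5 lower (0.259%), and what those probe sets target is not given in the sources used here. The share of genes past the threshold therefore did not set the named genes apart from the control probe sets, and the account that follows describes which genes they were.

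The promoters of 4 of the higher genes and 1 of the lower genes are shown as examples and do not stand for their groups. The higher genes include mitotic genes whose promoters are known for a pair of elements. These are the CCAAT box and the cell cycle genes homology region, or CHR, a short element through which many G2 and mitosis genes are repressed outside those phases. Each sequence covers the 250 bases before the gene's start on the gene's own strand, from RefSeq's table of GRCh38.p14, and capitals mark each match on either strand to the box, CCAAT, and to either form of the CHR, which is TTTGAA in one form and TTCGAA in another. The windows are chr10:60778081-60778330 on the plus strand for CDK1, chr15:59104896-59105145 on the plus strand for CCNB2, and chr10:32056426-32056675 on the minus strand for KIF5B. For ANXA1 the window is chr9:73151615-73151864 on the plus strand and for GYS1 chr19:48993310-48993559 on the minus strand.
CDK1: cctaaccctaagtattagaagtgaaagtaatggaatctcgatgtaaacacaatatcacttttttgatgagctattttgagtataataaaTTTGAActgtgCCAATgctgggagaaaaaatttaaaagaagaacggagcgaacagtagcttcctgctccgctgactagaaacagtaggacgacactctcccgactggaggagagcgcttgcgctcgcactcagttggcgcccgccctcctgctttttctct
CCNB2: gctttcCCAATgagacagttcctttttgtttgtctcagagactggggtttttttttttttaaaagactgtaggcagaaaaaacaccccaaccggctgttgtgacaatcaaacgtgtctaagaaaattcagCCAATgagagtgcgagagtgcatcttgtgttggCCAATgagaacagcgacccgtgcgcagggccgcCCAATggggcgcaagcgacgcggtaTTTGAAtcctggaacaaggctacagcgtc
KIF5B: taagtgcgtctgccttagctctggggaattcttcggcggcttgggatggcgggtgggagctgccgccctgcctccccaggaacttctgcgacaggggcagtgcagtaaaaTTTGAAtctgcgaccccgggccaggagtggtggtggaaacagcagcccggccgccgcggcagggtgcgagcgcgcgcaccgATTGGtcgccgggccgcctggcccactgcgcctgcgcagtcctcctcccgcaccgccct
ANXA1: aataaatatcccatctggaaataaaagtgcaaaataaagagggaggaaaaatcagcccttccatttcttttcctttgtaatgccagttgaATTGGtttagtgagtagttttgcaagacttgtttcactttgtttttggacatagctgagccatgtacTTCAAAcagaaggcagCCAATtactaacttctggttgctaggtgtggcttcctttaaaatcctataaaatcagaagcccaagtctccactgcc
GYS1: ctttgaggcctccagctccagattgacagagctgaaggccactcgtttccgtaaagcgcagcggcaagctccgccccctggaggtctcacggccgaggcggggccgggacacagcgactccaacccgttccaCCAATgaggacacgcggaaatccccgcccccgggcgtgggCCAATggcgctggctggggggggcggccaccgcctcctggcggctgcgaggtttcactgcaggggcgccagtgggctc

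In CDK1 the CHR letters lay at bases -161 to -156 before the start and a CCAAT box lay beside them at -150 to -146. CCNB2 held 4 CCAAT boxes, the nearest at -54 to -50, and the CHR letters at -29 to -24. KIF5B and ANXA1, which are not mitotic genes, also held both elements, at -140 to -135 and -93 to -88 for the CHR letters. GYS1 held 2 CCAAT boxes, at -118 to -114 and -78 to -74, and no CHR letters in the printed stretch. All 4 higher genes shown thus held the CHR letters, which 7 of 27 higher genes with a promoter did. HSP90AA1 and LMAN1, also among the leading higher genes, held CCAAT and no CHR letters and are not shown. The counts that follow used the whole window of 300 bases in the table, from 250 before to 50 after the start, and overlapping matches of different elements were each counted.

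Of the 29 higher genes, 27 had a promoter in the table, and 7 of these held the CHR letters (25.9%): ANXA1, ATM, CCNB2, CDK1, CSE1L, KIF5B and ZNF37A. The share was 7.69% for the 13 lower genes with a promoter, where PTGES was the gene that held them, 10.6% for 4214 genes above background and 16.4% for all 35116 promoters. CCAAT occurred in 15 of the 27 (55.6%), in 4 of the 13 (30.8%), in 37.9% of the genes above background and in 34.6% of all promoters. The GC box, GGGCGG, occurred in 77.8% of the 27, 61.5% of the 13 and 72.4% of the genes above background. At the wider threshold of 1.5-fold, CCAAT stood at 37.0% of 154 higher and 40% of 125 lower genes, close to the background, and the CHR letters at 15.6% and 8.8%. A match is a run of letters in this window and shows no binding. The promoters of EIF3E and CSF1 are not used here.

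Among the 29 higher genes ANXA1 had the largest shared difference, whether ordered by the smallest or by the mean of the 3. Its signal was 9.59 with vehicle, 11.49 with No.10-3, 12.12 with 0.5 µM C-30 and 12.35 with 2 µM C-30, log2 differences of 1.90, 2.52 and 2.76. All 3 compound arrays lay far above vehicle, and their own range of 0.86 was smaller than the gap to it. ANXA1 encodes annexin A1, which binds membranes in the presence of calcium and acts against inflammation. KIF5B, the heavy chain of the motor kinesin-1, had 8.76 with vehicle and 10.81, 10.55 and 10.19 on the compound arrays in the same order, differences of 2.04, 1.79 and 1.43. HSP90AA1, the inducible cytosolic chaperone of many kinases and steroid receptors, had 11.27 with vehicle and differences of 1.42, 1.79 and 1.68. EIF3E, a subunit of the initiation factor that brings mRNA to the ribosome, had 11.16 with vehicle against 12.32, 13.22 and 12.94. In each of these genes the vehicle array was the lowest of the 4 by more than the compound arrays differed among themselves.

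A pair of mitotic genes was among the 29. CDK1, the kinase that starts mitosis, had 9.14 with vehicle and 10.43, 10.37 and 10.75 with No.10-3, 0.5 µM C-30 and 2 µM C-30. Its partner CCNB2, cyclin B2, had 9.15 with vehicle and 11.14, 10.22 and 10.84, differences of 1.99, 1.08 and 1.70. Genes of growth signalling, nuclear transport, the centrosome and DNA damage signalling were also there. CIP2A, which encodes an inhibitor of the phosphatase PP2A, was higher by 1.01, 1.29 and 1.26, and the nuclear export factor gene CSE1L by 1.40, 1.40 and 1.01. PCM1, a scaffold of the satellites around centrosomes, was higher by 1.92, 1.22 and 1.11. The DNA damage kinase gene ATM had a low vehicle signal of 7.75 and stood at 9.03, 9.33 and 8.84 on the compound arrays. In these 6 genes vehicle was the lowest of the 4 arrays, as in all 29 by their choice.

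**Figure D1:**
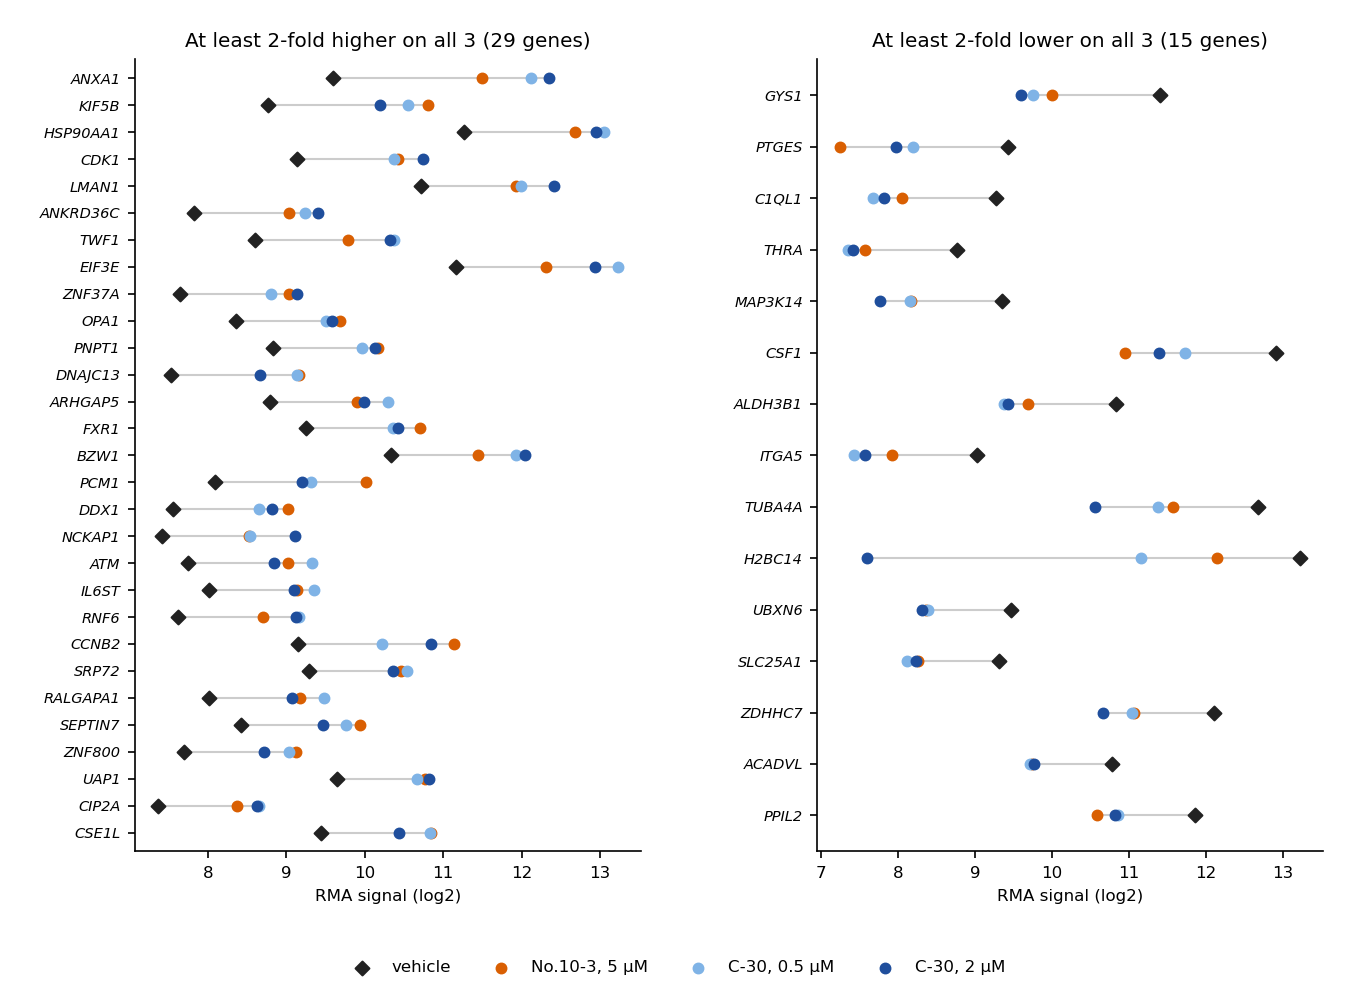
RMA signal (log2) of the 29 genes at least 2-fold higher and the 15 genes at least 2-fold lower on all 3 compound arrays, 1 point per array. Black diamonds are vehicle and circles the compound arrays; vehicle lies outside the compound arrays in every gene, which the choice of these genes fixes, and in H2BC14 the 2 µM C-30 array stands at 7.59, far from the other compound arrays.

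Among the other higher genes, those of the early secretory pathway included LMAN1, a cargo receptor between endoplasmic reticulum and Golgi, at 1.21, 1.27 and 1.69, and SRP72, a subunit of the signal recognition particle, at 1.17, 1.25 and 1.07. Genes of mitochondria were OPA1, the fusion GTPase of the inner membrane, at 1.33, 1.14 and 1.22, and PNPT1, the mitochondrial RNA-degrading enzyme, at 1.34, 1.14 and 1.31. The compound arrays of OPA1 lay within 0.18 of each other and those of PNPT1 within 0.20. RNA-binding or RNA helicase genes were FXR1, a relative of the fragile X protein, at 1.45, 1.11 and 1.18, and DDX1 at 1.47, 1.10 and 1.27. BZW1, a regulator of start codon choice in translation, stood at 1.11, 1.59 and 1.71.

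Genes of the cytoskeleton and endosomes were TWF1, an actin-binding protein, at 1.19, 1.78 and 1.72, and NCKAP1, a subunit of the WAVE complex, at 1.10, 1.12 and 1.69. SEPTIN7, a filament protein, was higher by 1.51, 1.33 and 1.04, and DNAJC13, an endosomal cochaperone, by 1.63, 1.61 and 1.13. IL6ST, the shared receptor subunit gp130 of interleukin-6 cytokines, was higher by 1.12, 1.34 and 1.08. The rest were RNF6, a ubiquitin ligase, RALGAPA1, which acts on Ral GTPases, UAP1, which makes UDP-N-acetylglucosamine, the zinc finger genes ZNF37A and ZNF800, and ANKRD36C, with means of 1.37, 1.22, 1.10, 1.34, 1.26 and 1.40. ANKRD36C, ZNF37A and HSP90AA1 have close relatives or pseudogenes in the genome whose transcripts could share their probes, so their values are uncertain. DST, the cytoskeletal linker dystonin, had a larger mean (1.59) than most of the 29 but was not counted, as its difference was 0.92 with 2 µM C-30 beside 1.97 and 1.88.

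The 29 genes had differences from 1.01 to 2.04 with No.10-3, from 1.01 to 2.52 with 0.5 µM C-30 and from 1.01 to 2.76 with 2 µM C-30. The largest of the 3 differences was on No.10-3 in 11 genes, on 0.5 µM C-30 in 10 and on 2 µM C-30 in 8. The range of the 3 compound arrays ran from 0.16 to 0.91 and was under 0.5 in 20 genes. The genes just inside the threshold were CSE1L, CIP2A and UAP1, and just outside it stood NMD3, a ribosome export adaptor, at 0.99, PTAR1 at 0.99 and the kinase gene UHMK1 at 0.98.

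The higher genes were dim with vehicle, which their choice as genes lowest with vehicle partly fixes. Their median vehicle signal was 8.60 beside 9.26 over all genes above background. On the compound arrays, in the same order as before, their medians were 9.94, 9.97 and 10.00, beside 9.37, 9.23 and 9.18 over all genes. Of the 29 genes, 12 lay in the 25% of genes with the lowest vehicle signal, of which 0 were 2-fold lower. Without those 25% of genes 17 of 3736 genes were higher (0.455%) and 15 lower (0.401%). A gene under the floor on any compound array was left out, which bounds differences downwards there and not upwards. The part of signal in the result was not tested.

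Of the 15 lower genes, GYS1 had the largest smallest difference. Its signal was 11.40 with vehicle, 10.00 with No.10-3, 9.75 with 0.5 µM C-30 and 9.59 with 2 µM C-30, differences of -1.41, -1.65 and -1.81. GYS1 encodes the glycogen synthase of muscle and most other tissues. PTGES, the microsomal synthase that makes prostaglandin E2, had 9.43 with vehicle and 7.25, 8.20 and 7.97 on the compound arrays, differences of -2.18, -1.23 and -1.46. CSF1, the growth factor of macrophages, had 12.92 with vehicle and 10.95, 11.73 and 11.40, differences of -1.97, -1.19 and -1.52. In these 3 genes all compound arrays lay under vehicle by more than their own range.

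Signalling genes among the lower ones were MAP3K14, the kinase NIK of the noncanonical NF-kB pathway, at -1.19, -1.21 and -1.59, and THRA, thyroid hormone receptor alpha, at -1.19, -1.41 and -1.35. ITGA5, the alpha subunit of the fibronectin receptor, had 9.03 with vehicle and 7.92, 7.43 and 7.56 on the compound arrays. Metabolic genes were ALDH3B1, an aldehyde dehydrogenase, at -1.14, -1.45 and -1.41, SLC25A1, the mitochondrial citrate carrier, at a mean of -1.11, and ACADVL, which begins the oxidation of very long fatty acids, at -1.03, -1.07 and -1.01. For ACADVL the compound arrays differed by 0.06 among themselves. UBXN6, a cofactor of the ATPase p97, stood at -1.10, -1.07 and -1.16, the palmitoyltransferase gene ZDHHC7 at -1.03, -1.06 and -1.44, and the cyclophilin-like PPIL2 at a mean of -1.11. C1QL1 had 9.27 with vehicle and differences of -1.23, -1.60 and -1.46.

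TUBA4A, an alpha-tubulin, had differences of -1.10, -1.30 and -2.12. H2BC14, a replication-dependent histone H2B, was counted with the group but was far from uniform, with 13.23, 12.15, 11.16 and 7.59 and differences of -1.07, -2.07 and -5.63. It was the 1 gene of the 15 whose compound arrays spread more (4.56) than the gap to vehicle. Both genes have near-identical relatives, so their values are uncertain. Just outside the threshold lay RERE, a transcriptional corepressor, at -0.98, CTDSPL, a phosphatase, at -0.98, and PFKFB3, the enzyme that makes the activator of phosphofructokinase, at -0.91. The 15 genes had a median vehicle signal of 10.78, above that of all genes, with 7 in the 25% of genes with the highest vehicle signal and 0 in the 25% with the lowest. Their choice as genes highest with vehicle partly fixes this. On the compound arrays their medians were 9.69, 9.38 and 8.31, beside 9.37, 9.23 and 9.18 over all genes.

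At 1.5-fold on all 3 arrays 179 genes were higher (3.59%) and 142 lower (2.85%), and positive control probe sets gave 3.06% and 2.02%. With no threshold 1320 genes were higher on all 3 (26.5%), 1576 lower (31.6%) and 2086 had mixed signs (41.9%). The gap between vehicle and the nearest compound array was larger than the range of the compound arrays in 449 genes on the higher side (9.01%) and 419 on the lower side (8.41%). Taken 1 array at a time, 149 genes were 2-fold higher and 44 lower with No.10-3 (2.99% and 0.883%), 120 and 125 with 0.5 µM C-30 (2.41% and 2.51%) and 154 and 317 with 2 µM C-30 (3.09% and 6.36%). The array whose omission moved the shared count most was No.10-3, without which 56 genes were higher and 85 lower. Without the 2 µM C-30 array the counts were 52 and 16, and without that at 0.5 µM 43 and 19. A count over fewer arrays can only grow. No gene was past 2-fold in opposite directions with No.10-3 and with both C-30 arrays, and 1 gene, FAM83D, was so at 1.5-fold.

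**Figure D2:**
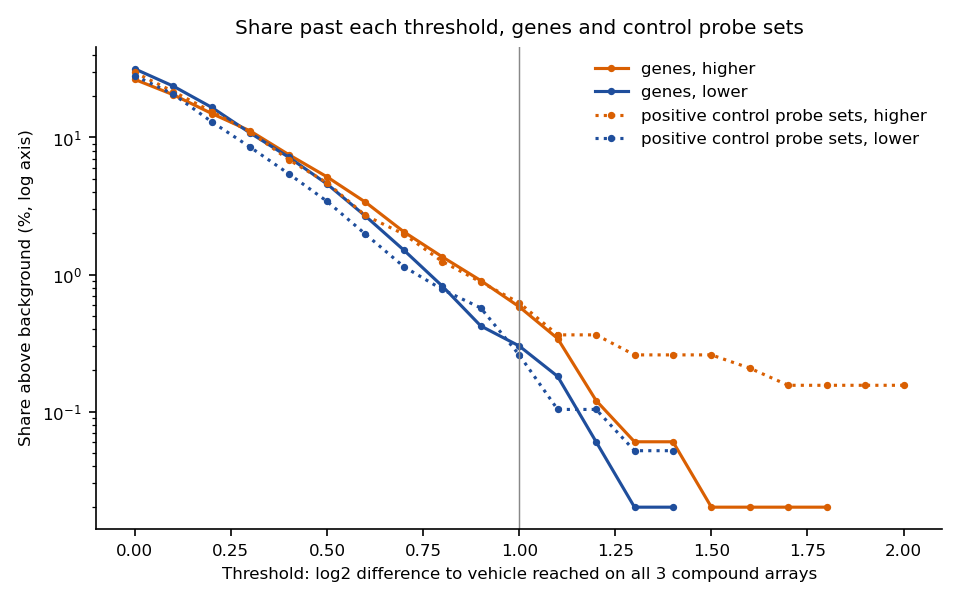
Share of features above background (percent, log axis) that reached each log2 difference to vehicle on all 3 compound arrays, for 4982 genes (solid) and 1929 positive control probe sets (dotted), higher in orange and lower in blue. The curves of genes and control probe sets lie close together up to the 2-fold line at 1. From 1.2 on, the higher curve of the control probe sets lies above that of the genes, with 0.259% against 0.0201% at 1.5. A point at 0% is not drawn.

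**Figure D3:**
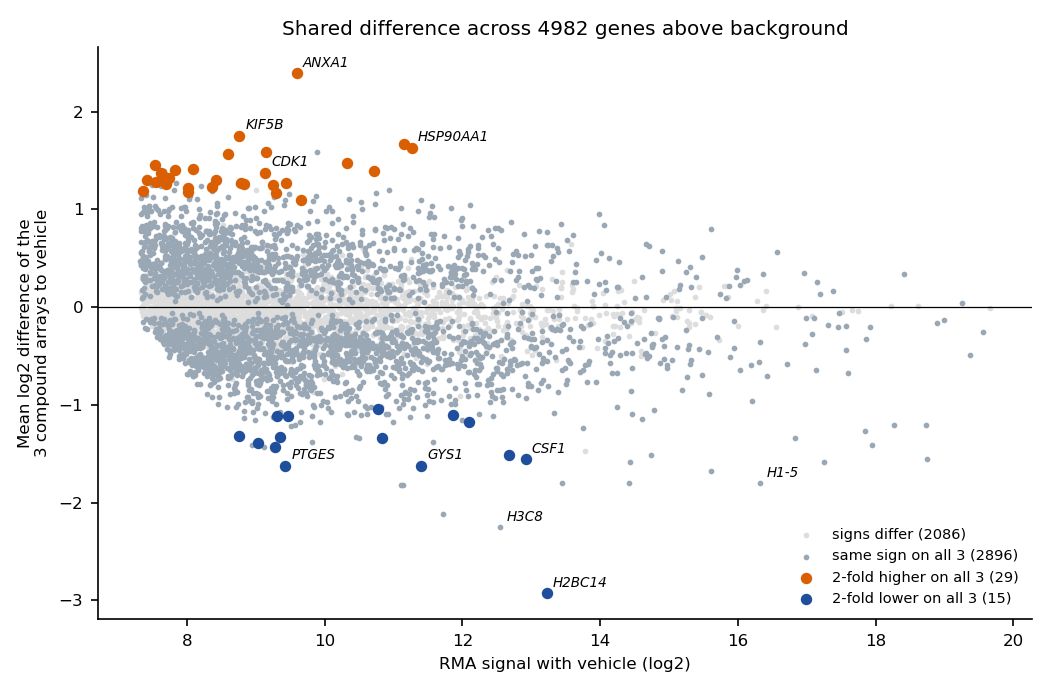
Mean log2 difference of the 3 compound arrays to vehicle against the vehicle signal (log2) of 4982 genes, 1 point per gene. The 29 higher genes (orange) lie mostly at low vehicle signal and the 15 lower genes (blue) at higher vehicle signal, which their choice by the difference to vehicle partly fixes. H2BC14 has the lowest mean at -2.93.

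The target's own transcript was nearly level. SFPQ had 12.59 with vehicle and 12.61, 12.60 and 12.68 on the compound arrays, differences of at most 0.09. NONO, which encodes the usual partner of PSF, had 12.48 with vehicle and 12.17, 11.82 and 11.58, lower on all 3 and never by 2-fold. PSPC1 differed by -0.06, -0.03 and 0.06. Of 9 genes of the PSF family and paraspeckles above background, 5 were higher on all 3 and 1 lower, none by 1.5-fold on all 3, with a median mean difference of 0.20 beside -0.05 over all genes. That median was 0.05 without the No.10-3 array and 0.34 without the 0.5 µM C-30 array. HNRNPH3, which encodes a splicing regulator, was higher by 1.12, 0.46 and 0.90, TARDBP, the RNA-binding protein TDP-43, by 0.51, 1.06 and 0.39, and NUDT21, a subunit of the factor that picks polyadenylation sites, by 0.23, 0.45 and 0.88.

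Lists of genes by function were next described by how many members had the same sign on all 3 arrays. Over all genes above background 26.5% were higher and 31.6% lower on all 3, so a list with shares near these does not stand apart by its count. The lists were drawn up with earlier results of these data known, so a share far from these is no test of a list either. Genes of mitosis and G2/M stood higher: of 29 above background 16 were higher on all 3, 0 lower and 13 mixed. Of the same 29, 5 passed 1.5-fold and 2 passed 2-fold, CDK1 and CCNB2, beside 3.59% and 0.582% of all genes. The list's median was 0.54, made of 0.85 with No.10-3, 0.15 with 0.5 µM C-30 and 0.41 with 2 µM C-30. Without the No.10-3 array it was 0.28, with 16 higher and 4 lower. SMC4, a condensin subunit, had differences of 1.21, 0.94 and 0.98, and BUB3, a spindle checkpoint protein, 0.90, 0.68 and 1.47. Members chosen after their values were seen show how uneven the list was. TOP2A, the topoisomerase that untangles chromosomes, had 1.56, 0.06 and 0.20, and MKI67, the proliferation marker, 0.62, -0.41 and -0.85. Motor and vesicle traffic genes were more even, with 13 of 15 higher on all 3, 1 lower, a median of 0.54 and array medians of 0.48, 0.49 and 0.59. Centring the arrays, quantile normalization and a correction for signal each left 11 higher and 1 lower. The list included the clathrin heavy chain gene CLTC at 0.97, 0.82 and 0.64 and the Golgi tether gene GOLGA4 at 0.55, 1.01 and 1.45. DYNC1H1, the heavy chain of dynein, was the member lower on all 3, at -0.84, -0.72 and -1.12.

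Of 12 heat shock chaperone genes, 6 were higher on all 3 and 2 lower, with a median of 0.34 that was 0.21 without the No.10-3 array. Beside HSP90AA1 stood HSPD1, the mitochondrial chaperonin, at 1.03, 0.91 and 1.01, CHORDC1, a partner of HSP90, at 0.71, 1.25 and 1.42, and the cochaperone gene DNAJA1 at 0.66, 0.58 and 1.15. The 2 lower members, chosen after their values were seen, were the stress-induced cochaperone gene DNAJB1 at -1.09, -0.84 and -0.42 and HSP90AB1, the constitutive relative of HSP90AA1, at -0.01, -0.15 and -0.17. Of 8 annexins 5 were higher on all 3 and 2 lower, with a median of 0.31, or 0.06 over 11 members with no floor. ANXA3 had 0.67, 0.61 and 0.69, and ANXA5, which binds phosphatidylserine, 0.60, 0.63 and 0.84. ANXA6 went the other way at -0.69, -1.13 and -1.71.

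Lists of RNA processing and protein turnover depended on the scaling. Of 23 SR protein and hnRNP genes 12 were higher on all 3 and 7 lower, with a median of 0.14, led by SRSF3, a small SR protein, at 0.66, 0.78 and 1.19. Quantile normalization and a correction for signal each left 12 higher and 2 lower. Of 23 core spliceosome genes the counts were 5 higher and 9 lower with the arrays centred, 5 and 8 after quantile normalization and 6 and 9 after a correction for signal. As deposited 3 were higher and 8 lower, with a median of -0.07. That median was -0.11 without the No.10-3 array, -0.13 without the 0.5 µM C-30 array and -0.04 without the 2 µM C-30 array. CDC40, which acts in the second step of splicing, stood at 0.84, 1.37 and 1.95, whereas SNRNP70 of the U1 particle stood at -0.65, -0.67 and -1.10 and U2AF2, which reads the polypyrimidine tract, at -0.27, -0.40 and -0.58. Of 24 translation initiation factors 8 were higher and 7 lower (median 0.16), or 10 and 3 after quantile normalization, with EIF2S2, the beta subunit of eIF2, at 0.88, 1.36 and 1.24. Of 31 cytosolic ribosomal protein genes 17 were higher and 4 lower (median 0.17, or 0.09 without the 0.5 µM C-30 array). The counts were 11 and 4 with the arrays centred, 17 and 1 after quantile normalization and 19 and 2 after a correction for signal. Among them were RPL14 at 1.04, 0.59 and 0.90 and RPS6 at 0.48, 0.76 and 0.64, in a family with many pseudogenes. Of 28 proteasome subunits 10 were higher and 10 lower, with a median of 0.19. Quantile normalization gave 10 and 5, the correction for signal 10 and 6, and the counts were 16 and 10 without the No.10-3 array. PSMC6, an ATPase subunit of the cap, had 0.49, 1.00 and 1.10. Their median was 0.31 without No.10-3, 0.10 without 2 µM C-30, and -0.07 over the 20 members above a floor at the 99th percentile of the negative controls.

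**Figure D4:**
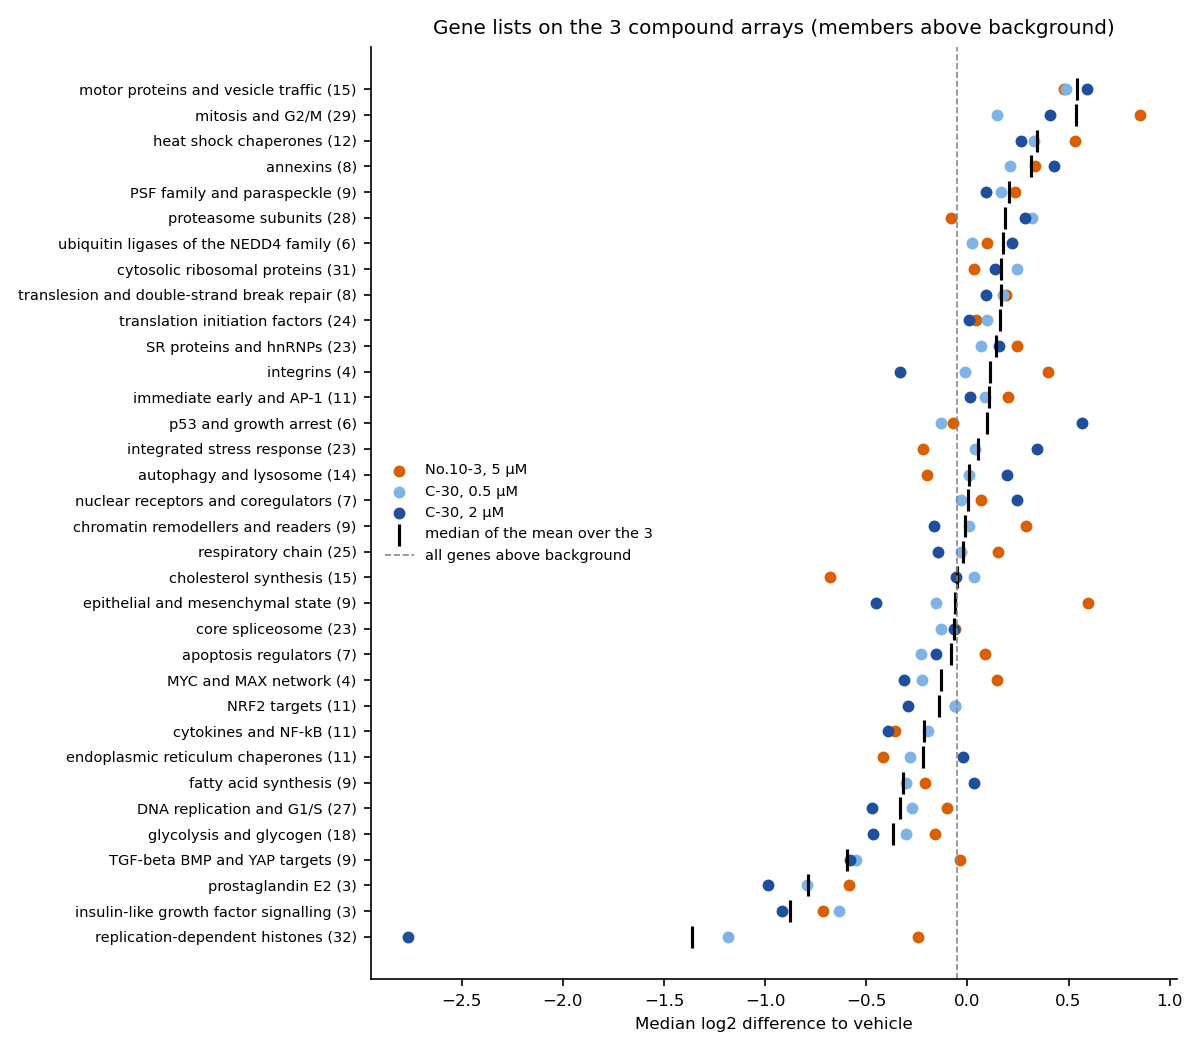
Median log2 difference to vehicle on each compound array (circles) and median of the mean over the 3 arrays (black bars) for 34 gene lists, with the number of members above background in brackets. The dashed line is the median over all genes, -0.05; the histone list lies lowest and spreads most between arrays, from -0.25 to -2.77.

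Replication-dependent histone genes, which are transcribed in S phase, were lower on all 3 arrays in 29 of 32 cases, with 0 higher. By 2-fold on all 3 H2BC14 alone of the 32 was lower, beside 0.301% of all genes. The list's medians, at doses not matched between the compounds, were -0.25 with No.10-3, -1.19 with 0.5 µM C-30 and -2.77 with 2 µM C-30. The median of the mean was -1.36, and -0.70 without the 2 µM C-30 array. H3C8 had 12.55 with vehicle and 12.13, 10.78 and 7.98, differences of -0.41, -1.77 and -4.57. The linker histone gene H1-5 had 16.33 with vehicle and 16.12, 15.12 and 12.35. H4C1 and H2AC21 were lower by more on No.10-3 than most, at -0.75, -1.24 and -2.14 and at -0.74, -1.22 and -2.78. The other histones among the 10 lowest genes by mean were H3C11 (-2.12), H3C1 (-1.83), H2BC8 (-1.82), H2AC8 (-1.80), H2AC4 (-1.80) and H4C14 (-1.67). These genes are near-identical copies, so single values are uncertain, and the floor left out 21 of the 53 named members. Genes of DNA replication and G1/S were lower on all 3 in 17 of 27 cases and higher in 4, with a median of -0.33 that was -0.21 without the 2 µM C-30 array. CDC45, a part of the replicative helicase, had -0.79, -0.72 and -1.13, and E2F8, a repressor of the E2F family, -0.57, -1.33 and -1.06. RFC3, a clamp loader subunit, stood higher at 0.71, 1.55 and 0.83, and RRM1, the large subunit of ribonucleotide reductase, at 0.77, 0.82 and 0.48.

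Of 18 genes of glycolysis and glycogen, 13 were lower on all 3 and 0 higher, with a median of -0.37 and array medians of -0.16, -0.31 and -0.47. The median was -0.21 without the 2 µM C-30 array and -0.23 with no floor, and 9 were lower after quantile normalization. Next to GYS1 and PFKFB3 stood PFKL, a phosphofructokinase, at -0.81, -0.74 and -1.01, and the pyruvate kinase gene PKM at -0.32, -0.30 and -0.71. Of 9 genes of fatty acid synthesis 3 were lower, near the share over all genes, 1 was higher, under the 26.5% over all genes, and 5 were mixed. The median was -0.32. Without No.10-3 it was -0.11, without 0.5 µM C-30 -0.17 and without 2 µM C-30 -0.18. The members included the synthase gene FASN at -1.31, -0.71 and -1.28 and the desaturase gene FADS2 at -0.77, -0.64 and -0.69. For 15 genes of cholesterol synthesis the counts were 5 lower, also near the share over all genes, 1 higher, under that share, and 9 mixed. The median was -0.05, and it was 0.01 after a correction for signal, -0.08 without No.10-3, -0.21 without 0.5 µM C-30 and -0.28 without 2 µM C-30. SREBF2, the transcription factor that drives that pathway, had -1.76, -0.91 and -0.97. Of 11 endoplasmic reticulum chaperone genes 6 were lower and 1 higher (median -0.22), or 3 and 1 after quantile normalization (median -0.09), including PDIA4, a disulfide isomerase, at -0.53, -0.71 and -0.70, and the ubiquitin ligase gene SYVN1 at -0.84, -0.50 and -0.52.

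Genes of cytokines and NF-kB were lower on all 3 in 7 of 11 cases and higher in 1, with a median of -0.21. With the arrays centred 4 were lower, and after quantile normalization or a correction for signal 5 were. Beside CSF1 stood TNFAIP2, a gene induced by tumour necrosis factor, at -0.64, -0.32 and -0.80, and the cytokine gene IL11 at -0.25, -0.50 and -0.51, while the NF-kB subunit gene REL stood at 0.29, 0.72 and 1.04. The median of the 9 prostaglandin E2 genes was 0.11 with no floor, and the 3 above background were PTGES, PTGES2 at -0.58, -0.79 and -0.99, and PTGES3, which is also a cochaperone of HSP90, at 0.03, 0.01 and 0.67. All 3 insulin-like growth factor genes above background were lower, with a median of -0.88. With no floor 8 of 12 were lower on all 3 and 2 higher, with a median of -0.27. Those above background were IGF1R, the receptor, at -0.33, -1.08 and -1.22, IGF2R at -0.71, -0.64 and -0.92, and the binding protein gene IGFBP3 at -1.74, -0.19 and -0.83. Of 9 TGF-beta, BMP and YAP target genes 3 were lower on all 3, near the share over all genes, and 0 higher. The median was -0.60, or -0.32 without the 2 µM C-30 array. The members included TGFBI, a matrix protein, at -0.87, -0.55 and -0.58, and the differentiation inhibitor gene ID1 at -0.04, -0.83 and -1.98.

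The 23 genes of the integrated stress response went both ways, 7 higher and 6 lower on all 3, with a median of 0.05 that was -0.18 without the 2 µM C-30 array, 0.23 without No.10-3 and 0.02 without 0.5 µM C-30. SLC7A11, the cystine transporter, stood at 0.90, 1.07 and 1.52, ASNS, asparagine synthetase, at 0.51, 0.43 and 0.95, and the arginine transporter gene SLC7A1 at -0.62, -0.98 and -0.72. NRF2 targets were lower in 5 of 11 cases and higher in 3 (median -0.14, or -0.07 without 2 µM C-30). Above the floor at the 99th percentile 2 of 7 were lower and 3 higher, with a median of 0.14. The members included HMOX1, heme oxygenase, at -0.44, -0.64 and -0.82 and TXNRD1, thioredoxin reductase, at 0.25, 0.44 and 0.41. Of 8 genes of translesion and double-strand break repair 4 were higher and 1 lower (4 and 4 without No.10-3), the latter on all 3 arrays the nuclease scaffold gene SLX4 at -0.34, -0.72 and -1.32. Of 6 NEDD4-family ubiquitin ligases 3 were higher and 1 lower (median 0.17, or 0.03 without 2 µM C-30), with SMURF2 at 0.87, 1.21 and 1.22 and WWP2 at -0.66, -0.87 and -0.87. Of 11 immediate early genes 5 were higher and 1 lower (median 0.10, or 0.06 without No.10-3), with EGR1, a growth-induced transcription factor, at 1.22, 0.42 and 1.47. The lists of p53 targets, integrins, MYC and MAX, apoptosis, autophagy, respiratory chain, chromatin, nuclear receptors and epithelial state had medians between -0.13 and 0.11. Of these, the nuclear receptor, chromatin, epithelial, respiratory chain and apoptosis medians turned sign under at least 1 other scaling. Those of p53 targets, integrins, MYC and MAX, and autophagy turned sign under another floor or without 1 array, so the direction of none of these lists held throughout. Among their members CLDN1, a tight junction protein, stood at 0.60, 0.75 and 1.07, the glucocorticoid receptor gene NR3C1 at 1.07, 1.05 and 0.40, CDKN1B, the cell cycle inhibitor p27, at 0.06, 0.66 and 1.22, and BECN1, an autophagy initiator, at 0.69, 0.70 and 0.99.

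Gene length and chromosome moved with the shared difference. The 29 higher genes spanned a median of 55957 bases of the genome and the 15 lower genes 20487, beside 30588 for all genes above background. In the shortest 20% of genes 7 were 1.5-fold higher on all 3 and 29 lower, and in the longest 20% 55 were higher and 29 lower. At 2-fold the longest 20% held 9 higher and 0 lower genes, and the shortest 0 and 5. By chromosome, the median of the mean difference was lowest on chromosome 19 (-0.26) and chromosome 22 (-0.24) and highest on chromosomes 10 and 13 (0.12 each). With each array centred on each chromosome's median, an alternative chosen after seeing the data, 17 of the 29 and 10 of the 15 were still past 2-fold. The part of length and chromosome in the result was not tested. Promoter GC content was alike, with medians of 64.3%, 64.7% and 65.7% for the higher, the lower and all genes.

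**Figure D5:**
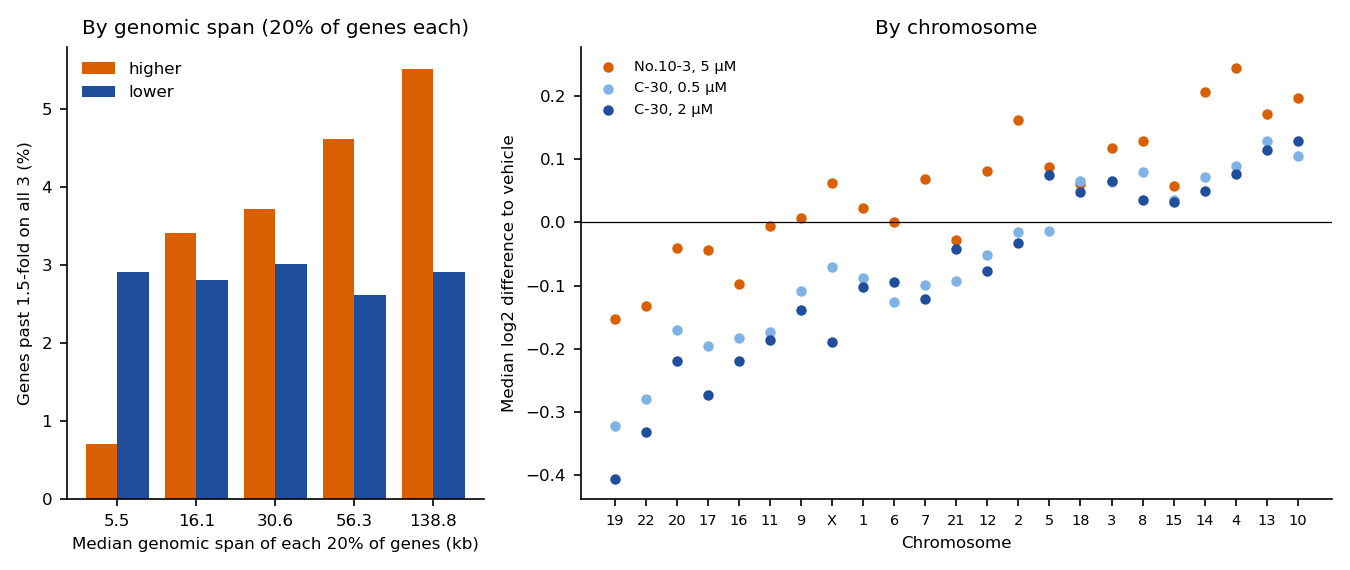
Left, share of genes past 1.5-fold on all 3 compound arrays (percent) in each 20% of genes by genomic span, labelled by median span in kb. Right, median log2 difference to vehicle on each compound array by chromosome, ordered by the median of the mean difference; the share of higher genes grows with span, and all 3 arrays lie lower on chromosomes 19 and 22 than on 10 and 13.

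The background level removed genes that were near it with vehicle. With a gene kept when vehicle or all compound arrays passed, 698 more genes entered. Of the 5680 genes then kept, 58 were higher (1.02%) and 18 lower (0.317%) by 2-fold. The added higher genes lay under the background level with vehicle and the added lower genes on all 3 compound arrays, so their differences are inexact. Each entered only through the arrays where it was high. Chosen after their values were seen, CENPF, a kinetochore protein, went from 5.92 to 9.37, 8.31 and 7.98, NRIP1, a corepressor of nuclear receptors, from 6.53 to 8.55, 9.14 and 8.18, and CHD1, a chromatin remodeller, from 6.09 to 7.57, 8.89 and 7.65. Of the 3 added lower genes RARG, a retinoic acid receptor, went from 7.61 to 6.57, 5.88 and 5.73, and JDP2, a partner of AP-1, from 8.13 to 6.74, 6.95 and 6.92. Nearest to the level itself, MANBA passed and KRR1 did not.

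The 95th percentile of the negative controls lay between 7.06 and 7.32, with vehicle highest. Of epithelial markers 5 of 6 were above background on all 4 arrays (KRT8, KRT18, KRT19, KRT7 and EPCAM, with CDH1 below), and 0 of 4 named prostate luminal markers were, with KLK3 between 6.47 and 6.81. Of other cell types' markers, 1 of 5 leukocyte genes (CD68), 0 of 4 fibroblast and 0 of 3 endothelial genes passed. The log2 of the summed signal lay between 14.39 and 14.94 for epithelial, 8.90 and 9.65 for leukocyte, 7.11 and 7.64 for fibroblast and 6.93 and 7.12 for endothelial markers. As these are bulk samples, fewer cells of a state and less RNA per cell cannot be told apart. The labelling spikes dap, lys, phe and thr were lower than vehicle on all 3 compound arrays, with means of -0.40, -0.31, -0.30 and -0.68, though dap alone was above background on all 4. The hybridization spikes were lower with No.10-3, by -0.32 to -0.41, and within 0.15 of vehicle on the C-30 arrays. The part of the spikes in the results was not tested. The median difference over all genes was 0.04, -0.08 and -0.11 on the 3 arrays.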

How the data were processed

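Total RNA of DU145 cells was measured on 4 arrays, 1 per condition. The submitters' processing notes name RMA and version 1.3.0 of Affymetrix Expression Console, and the deposited values are log2 signals. Their log base was inferred from their range; the genome build and probe annotation behind them: not given in the sources used here. The highest named value, 19.66, exceeds the usual scanner range, so a fold holds on the scale of these values only.

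Of 24351 probe sets, 17709 had 1 symbol, 0 several and 6642 none, and 2903 of the last were controls. All 17709 matched RefSeq (GRCh38.p14) by Entrez identifier and gave 17687 genes, with the mean of several probe sets taken for 20. The floor was the 95th percentile of 612 negative control probe sets on each array, so each sample's precision is limited by a single array. A gene was counted when all 3 differences to vehicle had the same sign and a size of at least 1.

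The members and the 34 lists were chosen with earlier results of these data known. Named genes were those with the 15 largest smallest differences and the 10 largest means each way, up to 4 members per list, the 3 just inside and just outside 2-fold, up to 5 opposite genes, and the genes of PSF and its relatives. Symbols of pseudogenes, small RNAs, immune segments, olfactory receptors and uncharacterised loci (25) were left out. Other genes are said to be chosen after their values were seen, apart from the remaining members of the 2-fold groups, markers and floor neighbours. No protein sequences were used here, so protein features were not computed. Alternatives were other floors, a 1.5-fold threshold, other scalings, the brightest probe set, the second deposited table (largest difference 5e-05) and each compound array left out. The counting was tested on simulated data. Tables were made with pandas 2.3.3 and numpy 2.4.6 under Python 3.11.15, the interval with scipy 1.17.1, the lowess with statsmodels 0.14.6 and the plots with matplotlib 3.10.9.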

Additional observations from a re-analysis of the deposited data

Results flagged for a closer look

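Positive control probe sets, which enter no comparison of genes, also passed 2-fold on all 3 compound arrays. Among 1929 above background 12 were higher (0.622%) and 5 lower (0.259%). Of 665 probe sets above background that carry no gene symbol and are no controls, 5 were higher (0.752%) and 2 lower (0.301%) by 2-fold on all 3. These shares lay near those of the genes, 0.582% and 0.301%. FAM83D, which encodes a spindle protein, went in opposite directions, with 11.38 on vehicle, 12.05 with No.10-3 (a difference of 0.67) and 10.78 and 10.69 with C-30 (-0.60 and -0.69). That difference between compounds was not tested, and the doses are not matched.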

How the results depend on the processing

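No paired analysis was possible because each condition has 1 array and the replicate numbers are names only. The 29 higher and 15 lower genes (0.582% and 0.301% of 4982) became 179 and 142 at 1.5-fold (3.59% and 2.85%). With no floor they were 92 and 28 of 17687 (0.52% and 0.158%). With the floor at the 99th percentile of the negative controls they were 12 and 7 of 2367 (0.507% and 0.296%). With vehicle or all compound arrays above the floor 58 of 5680 were higher (1.02%). Without the 25% of genes with the lowest vehicle signal, chosen after seeing the data, 17 of 3736 were higher (0.455%). Without the No.10-3 array the counts were 56 and 85, and without the C-30 array at 2 µM 52 were higher. The share of counted genes that were higher was 65.9%. It was 39.7% without No.10-3, 76.5% without C-30 at 2 µM, 76.7% with no floor, 76.3% with vehicle or all compound arrays above the floor and 55.8% at 1.5-fold. The gap to vehicle exceeded the range of the compound arrays in 868 genes (17.4% of 4982). This count became 2581 of 17687 with no floor and 432 of 2367 at the 99th percentile. It was 2330 without No.10-3, 1654 without C-30 at 0.5 µM and 1813 without C-30 at 2 µM. Fewer arrays give a smaller range and a looser count by construction, and fewer or more genes enter with each floor. Centring the arrays on their medians gave 29 higher and 17 lower, with 23 and 13 of the original genes kept; it moved the median difference over all genes from 0.04 to -0.08 with No.10-3. Quantile normalization and a lowess correction on signal each gave 34 and 14, and the latter moved the median of the 2 µM C-30 array from -0.11 to -0.01. The pooled floor gave 30 and 15, and the brightest probe set and the second deposited table each gave 29 and 15. Centring by chromosome, chosen after seeing the data, gave 23 and 13. Of 1914 values of single genes, 15 moved by more than the spread of the 3 differences. These were 8 of 166 after quantile normalization and 7 of 166 after the lowess correction. Another floor leaves a gene's value as it was, and omitting 1 array cannot move the mean beyond that spread, so those alternatives could not show a move. Of 405 list medians 34 moved by more than the spread of the list's 3 array medians. A list that differs much between arrays could thus hardly move. The histone median went from -1.36 to -0.70 without C-30 at 2 µM and was not counted as moved. No counted gene's mean turned sign, which the choice of these genes fixes for other floors and for omitted arrays. Single genes were not followed under the centring by chromosome. Lists with no member above the 99th percentile floor have no value there.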
